A study of Mus musculus with 6 samples.

Results

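The 8 genes described here build caveolae or mark how much vesicle traffic crosses the vessel wall: Cav1, Cav2, Cavin1, Cavin2, Pacsin2, Ehd2, Plvap and Mfsd2a. They were chosen by gene symbol, and all 8 were found among the 19124 genes of the deposited table. RNA was measured in CD31-sorted cells from the retinas of C57BL/6 mouse pups at P7 (postnatal day 7). CD31 sits on the surface of endothelial cells, and platelets and some leukocytes have it too. The 3 KO pups had the genotype Pdgf{beta}CreERT2pos Rnf20p/p, and the 3 Ctrl pups had the genotype Pdgf{beta}CreERT2neg Rnf20p/p. The p alleles of Rnf20 were therefore shared by both groups, as was the injection of 75 µg Z-4-hydroxytamoxifen on each day from P1 to P4, and the groups differed in the tamoxifen-inducible Cre. Rnf20 encodes a ubiquitin ligase that modifies histone H2B. Each library came from a different pup, and the labels gave no litter, batch or sex.

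Caveolae are flask-shaped pits of the plasma membrane that are abundant in endothelium and can carry cargo across the cell as vesicles, a route called transcytosis. Caveolins form the membrane-embedded part of the coat, cavins form its outer layer, and Pacsin2 and Ehd2 bend and hold the neck. Vessels of the retina and brain keep this route low: Mfsd2a, a lipid transporter of barrier endothelium, holds caveolar transcytosis down, while Plvap, the diaphragm protein of caveolae and fenestrae, is found mostly in vessels without a tight barrier.

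Cav2 and Cav1 are neighbours on chromosome 6, and the deposited counts cover the span of each gene with its introns. Cav2 (NM_016900) lies at 17281185 to 17289130 and Cav1 (NM_007616) at 17306335 to 17341328, both on the plus strand of GRCm38.p6 and 17204 bases apart. The 250 bases before the first listed start of each are shown because these neighbours had similar orders of libraries. The window of Mfsd2a is shown beside them because its pattern across the libraries differed from theirs. The sequences are from RefSeq on GRCm38.p6 and read 5′ to 3′ on the strand of the gene, with the GC box (GGGCGG or its reverse complement) in capitals.
Cav1 (chr6:17306085-17306334, plus strand): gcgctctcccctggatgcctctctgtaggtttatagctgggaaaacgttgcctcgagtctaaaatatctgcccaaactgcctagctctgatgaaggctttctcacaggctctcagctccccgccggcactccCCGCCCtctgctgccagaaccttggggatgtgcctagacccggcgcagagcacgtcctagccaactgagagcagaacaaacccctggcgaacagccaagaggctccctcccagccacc
Cav2 (chr6:17280935-17281184, plus strand): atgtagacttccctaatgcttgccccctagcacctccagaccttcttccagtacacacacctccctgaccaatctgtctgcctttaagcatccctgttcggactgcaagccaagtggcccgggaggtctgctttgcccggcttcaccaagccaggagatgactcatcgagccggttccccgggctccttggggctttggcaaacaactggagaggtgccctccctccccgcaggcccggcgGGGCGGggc
Mfsd2a (chr4:122961189-122961438, minus strand): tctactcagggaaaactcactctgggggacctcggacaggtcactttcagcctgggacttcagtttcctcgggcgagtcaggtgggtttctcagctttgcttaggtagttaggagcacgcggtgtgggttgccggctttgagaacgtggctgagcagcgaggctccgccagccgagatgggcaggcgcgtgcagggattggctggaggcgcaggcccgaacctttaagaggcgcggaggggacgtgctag
The Cav2 window held its GC box from 9 to 4 bases before the start, and the Cav1 window held one on the opposite strand from 118 to 113 bases before the start. The Mfsd2a window had none. RefSeq windows were given for 7 of the 8 genes, and 5 genes had a GC box on either strand in at least 1 window, namely Cav1, Cav2, Cavin1, Ehd2 and Pacsin2. Pacsin2 had one although its log2 CPM ran against that of Cav1 (Pearson's r of -0.925). Cavin2, which followed Cav1 with an r of 0.95, had none. A link of the GC box to the pattern across libraries was not tested. Over all 32851 windows of this length, 32.7% held it. The letters AGGAAG or CCGGAA, short forms of ETS factor motifs, were in the windows of 0 of the 7 genes and in 38.2% of all windows. The letters ACAAAG or ACAATG, short forms of SOX factor motifs, were also in those of 0 of the 7 genes and in 25.2% of all windows. The KLF letters CACACCC were in a window of 1 gene, Pacsin2, and in 6.93% of all windows. Both strands were searched for each motif, and several genes had more than 1 window.

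Of the 8 genes, 7 had a higher mean in KO than in Ctrl. The ratio of means was 2.07 for Cavin2, 2.77 for Mfsd2a and in between for Cav1, Cavin1, Plvap and Ehd2, with 1.61 for Cav2. The median log2 fold change was 1.09 for the 8 genes and 0.03 for all genes tested, of which 51.0% had a positive value. Of the 8, 1 passed as higher in KO, Plvap, and 0 passed as lower. The test was edgeR's quasi-likelihood F test, adjusted by Benjamini-Hochberg over 16217 genes, at a threshold of 0.05. Of all genes tested, 10.3% passed, 5.85% higher in KO and 4.44% lower. All 8 genes passed the filter on low counts, and 5 had an unadjusted p below 0.05, as did 30.5% of all genes tested. The KO and Ctrl libraries did not overlap for 5 of the 8, Cavin1, Cavin2, Plvap, Mfsd2a and Ehd2, each higher in KO. Among all genes tested, 19.0% were higher in KO without overlap and 18.9% lower. Levels below are CPM, counts scaled to the library total after TMM scaling of the libraries.

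**Figure D1:**
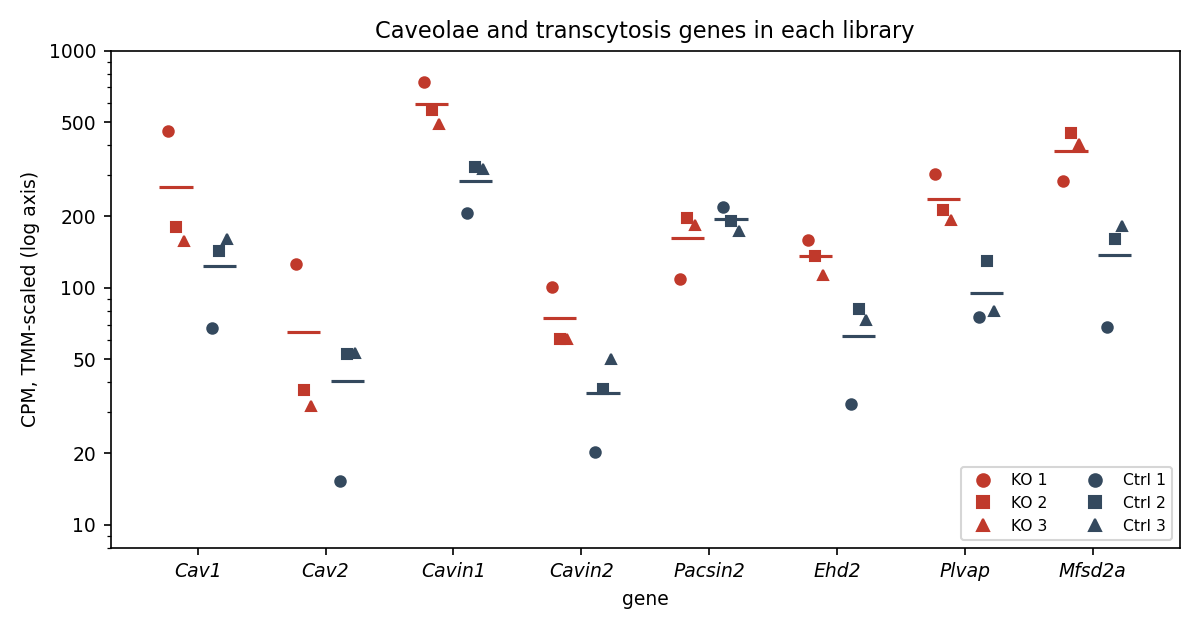
CPM (log axis) of the 8 genes in the 3 KO and 3 Ctrl libraries, with 1 symbol per library and a bar at each group mean. KO 1 is the highest library for 6 genes, Ctrl 1 is the lowest for all but Pacsin2, and Mfsd2a is highest in KO 2.

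The libraries held different amounts of endothelial and other RNA. The 15 endothelial markers, all detected, summed to between 11127 and 15443 CPM in KO and between 3546 and 5464 CPM in Ctrl, and 11 of them rose. Cldn5 was the largest part of that sum in every library. All 15 had a positive log2 fold change, from 0.16 for Kdr to 1.79 for Cldn5, with a median of 1.45. The groups overlapped for Pecam1, Kdr and Tek. The 14 photoreceptor markers summed to between 4583 and 21160 CPM in KO and between 18606 and 32347 CPM in Ctrl, so that KO 3 lay within the Ctrl range, with 3 of the 14 lower in KO past the threshold. Of the 14, 0 had a positive log2 fold change, and the median was -1.20. Their mean log2 CPM was 7.18, 8.08 and 9.294 in KO 1, 2 and 3, against 9.81, 9.295 and 9.50 in Ctrl 1, 2 and 3. On that measure KO 3 and Ctrl 2 were nearly equal, and the other KO libraries were lower. The 12 microglial markers summed to between 234 and 12315 CPM in KO and between 239.6 and 1432 CPM in Ctrl, and the 12 mural cell markers to between 350.1 and 819 CPM in KO and between 141 and 828 CPM in Ctrl, a sum made up mostly of Rgs5. All 12 mural markers had a positive log2 fold change, with a median of 1.29, and 1 of them rose, Des. Mural cells have caveolae of their own. The mean log2 CPM of their markers was 3.93, 4.41 and 3.57 in KO 1, 2 and 3, against 1.47, 2.60 and 3.54 in Ctrl 1, 2 and 3, without overlap. The 12 Müller glia and astrocyte markers summed to between 2785 and 2966 CPM in KO and between 1937 and 2347 CPM in Ctrl, and Glul, Vim and Pax2 rose, 3 of the 12. The platelet markers summed to between 19.2 and 37.4 CPM in KO and between 11.4 and 13 CPM in Ctrl, and of 4 tested 1 rose, Pf4. The 7 erythroid markers summed to between 384 and 557 CPM in KO and between 51.0 and 81.6 CPM in Ctrl, and 4 of them rose. Hba-a1 and Hba-a2 had identical values in every library, so the sums and the count of 4 hold the same values more than once. No marker of these lists was at 0 in every library. In such sorted samples fewer cells of a type and less RNA per cell cannot be told apart, and the part of these markers in the differences below was not tested beyond the comparison with endothelial markers. Library totals were 25016982 to 30692948 counts in KO and 14581701 to 28969300 counts in Ctrl. KO 1 stood apart from its group over all genes tested as well. Pearson's r of its log2 CPM was 0.868 with KO 2 and 0.877 with KO 3. It was 0.819, 0.887 and 0.896 with Ctrl 1, 2 and 3, while KO 2 and KO 3 had an r of 0.951. Rnf20 itself was 39.1, 31.0 and 31.7 CPM in KO 1, 2 and 3, against 47.9, 57.1 and 56.8 CPM in Ctrl 1, 2 and 3. The groups did not overlap, and its log2 fold change of -0.67 (SE 0.235) missed the threshold, with an adjusted p of 0.101 in edgeR's quasi-likelihood test.

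Cav1 encodes the caveolin without which endothelial caveolae do not form. Its level was 458, 179.7 and 157 CPM in KO 1, 2 and 3, against 67.9, 143 and 161 CPM in Ctrl 1, 2 and 3. KO 1 stood far above every other library, while KO 3 lay just below Ctrl 3, so the groups overlapped. The means were 265 ± 168 CPM in KO and 124 ± 49.5 CPM in Ctrl (SD, n = 3 each), a log2 fold change of 1.10 (SE 0.490) with an adjusted p of 0.173 in edgeR's quasi-likelihood test. Without KO 1 the log2 fold change was 0.51. Cav1 lies wholly within Gm15581, an antisense gene of the GENCODE M21 annotation, and the library preparation did not mark the strand, so reads of the pair could not be told apart.

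Cav2, which reaches the surface in complex with Cav1, had a similar order of libraries. It had 127, 37.2 and 31.6 CPM in KO 1, 2 and 3, against 15.3, 52.8 and 53.2 CPM in Ctrl 1, 2 and 3. KO 1 was again the highest library and Ctrl 1 the lowest, but KO 2 and KO 3 lay below Ctrl 2 and Ctrl 3. The log2 fold change was 0.69 (SE 0.638, adjusted p = 0.498 in edgeR's quasi-likelihood test), and without KO 1 it turned to -0.16. Cav2 also lies within Gm15581.

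The table holds a short Cav2 transcript that ends after the second exon, which allowed the gene to be split. This split was chosen after the values were seen. Over the first 2 exons, at 17281185 to 17282684, Cav2 had 20.5, 20.6 and 16.2 CPM in KO 1, 2 and 3, against 7.31, 9.16 and 10.4 CPM in Ctrl 1, 2 and 3. All KO libraries lay above all Ctrl libraries here, with means of 19.1 ± 2.48 CPM in KO and 8.95 ± 1.54 CPM in Ctrl (SD, n = 3 each). The share of other genes whose short entries separated in this way was not computed, so this separation has no background to be read against. Over the rest of the gene, which holds the third exon, the level was 106, 16.6 and 15.4 CPM in KO 1, 2 and 3, against 7.96, 43.6 and 42.9 CPM in Ctrl 1, 2 and 3. KO 1, Ctrl 2 and Ctrl 3 were high in that stretch, and the others were low. The stretch therefore took 83.8%, 44.6% and 48.6% of Cav2 counts in KO 1, 2 and 3, against 52.1%, 82.6% and 80.5% in Ctrl 1, 2 and 3. Across 310 genes with a short entry at the 5′ end, the median share of counts in the 3′ part was 44.9%, 35.3% and 34.0% in KO 1, 2 and 3, against 37.7%, 42.8% and 41.7% in Ctrl 1, 2 and 3. The same 3 libraries were the highest in that measure, and its part in the Cav2 result was not tested. With the short entry in place of the long one, the Cav2 log2 fold change was 1.10 (SE 0.296), with an adjusted p of 0.0540 in edgeR's quasi-likelihood test.

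**Figure D2:**
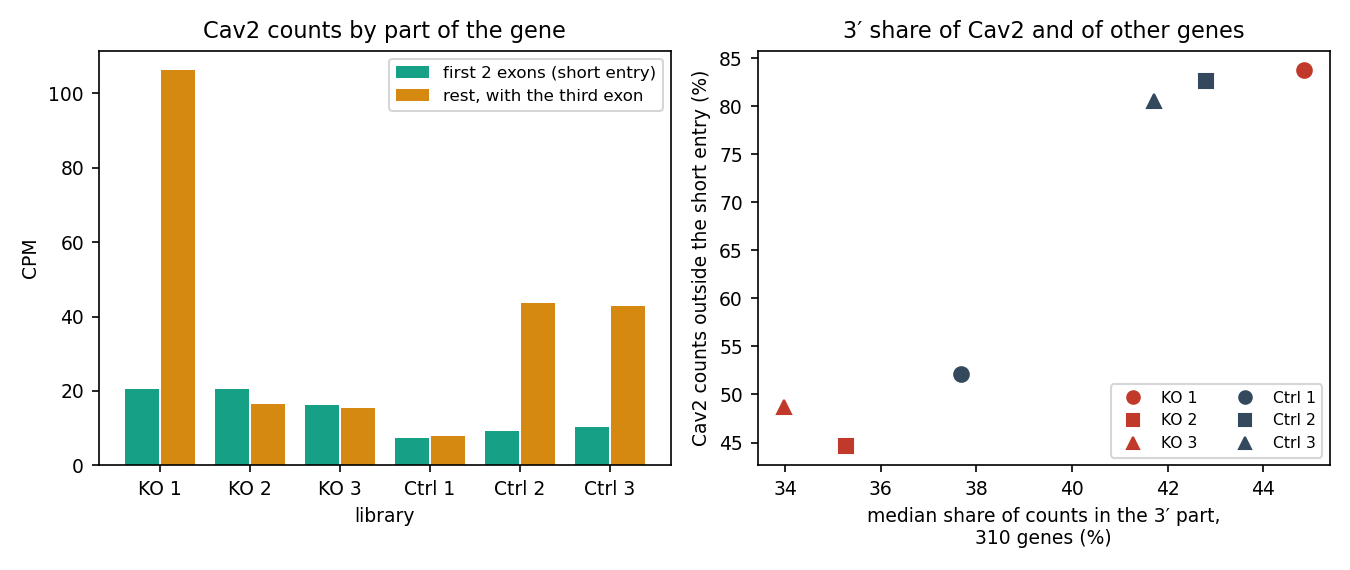
Left, Cav2 level in CPM over the first 2 exons and over the rest of the gene in each of the 3 KO and 3 Ctrl libraries. Right, percent of Cav2 counts outside the short entry against the median percent of counts in the 3′ part of 310 genes, 1 point per library. Over the first 2 exons every KO library is above every Ctrl library, and KO 1, Ctrl 2 and Ctrl 3 stand together at the upper right. The share of other genes whose short entries separate without overlap was not computed.

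The same kind of split, also chosen with the values seen, was possible at the 5′ ends of Cav1 and Cavin1. The stretch between the upstream and the downstream start of Cav1, at 17306335 to 17307639, had 4.66, 11.5 and 11.7 CPM in KO 1, 2 and 3, against 2.32, 2.15 and 1.37 CPM in Ctrl 1, 2 and 3. KO was higher without overlap, with a ratio of means of 4.77, in a stretch that held between 0.848% and 7.44% of Cav1 counts. KO 1, which had the most Cav1 counts over the whole gene, was the lowest of the KO libraries here. Over 440 genes with a short entry at the 3′ end, the median share of counts in the 5′ part was 4.33%, 4.98% and 5.95% in KO 1, 2 and 3, against 4.70%, 4.42% and 4.42% in Ctrl 1, 2 and 3. KO 2 and KO 3 were highest and KO 1 lowest in that measure, and its part in the Cav1 and Cavin1 values was not tested. A short entry of Cavin1 was placed at the 5′ end only by inference, from the RefSeq start sites and its deposited length. It had 14.6, 28.4 and 25.2 CPM in KO 1, 2 and 3, against 4.65, 7.06 and 8.02 CPM in Ctrl 1, 2 and 3. Its KO libraries were above its Ctrl libraries, and with that entry in place of the long one Cavin1 passed the threshold, with a log2 fold change of 1.79 (SE 0.377) and an adjusted p of 0.0308 in edgeR's quasi-likelihood test. In that fit 9.93% of all genes tested passed, 5.67% higher in KO and 4.26% lower. The share of other genes whose 5′ parts separated without overlap, as those of Cav1 and Cavin1 did, was not computed.

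Cavin1, the cavin that every caveola needs, had the highest mean CPM of the 8 genes in both groups. It lies on the minus strand of chromosome 11 (NM_008986, 100956736 to 100970617). Its level was 741, 561 and 491 CPM in KO 1, 2 and 3, against 207, 323 and 317 CPM in Ctrl 1, 2 and 3. Every KO library exceeded every Ctrl library, with KO 1 highest. The means were 598 ± 129 CPM in KO and 282 ± 65.0 CPM in Ctrl (SD, n = 3 each). The log2 fold change of 1.08 (SE 0.285) came just short of the threshold, with an adjusted p of 0.0501 in edgeR's quasi-likelihood test.

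Cavin2, which promotes membrane curvature and joins Cavin1 in the coat, had lower counts. On chromosome 1 (NM_138741, 51289126 to 51302960, plus strand), it had 101, 60.5 and 61.1 CPM in KO 1, 2 and 3, against 20.3, 37.3 and 50.0 CPM in Ctrl 1, 2 and 3. The groups did not overlap, with KO 1 well above the other KO libraries and Ctrl 1 the lowest of all. The log2 fold change was 1.05 (SE 0.380, adjusted p = 0.109 in edgeR's quasi-likelihood test). Cavin2 lies wholly within 9330175M20Rik, another gene of the table, and its counts are uncertain for that reason.

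The 2 neck genes had unlike patterns. Ehd2, an ATPase that steadies caveolae at the surface (chromosome 7, 15946963 to 15967535, minus strand, NM_153068, with a deposited length of 18548 bases against a RefSeq span of 20573), had 159, 137 and 113 CPM in KO 1, 2 and 3, against 32.3, 81.8 and 73.4 CPM in Ctrl 1, 2 and 3. Its KO libraries were all above its Ctrl libraries, and its spread in KO was small, at 136 ± 23.0 CPM against 62.5 ± 26.5 CPM in Ctrl (SD, n = 3 each). The log2 fold change was 1.12 (SE 0.366, adjusted p = 0.0839 in edgeR's quasi-likelihood test). Pacsin2, a membrane-bending F-BAR protein that is also expressed outside endothelium, lies on chromosome 15 (NM_001159509, 83375607 to 83464610, minus strand). It had 109, 196 and 183 CPM in KO 1, 2 and 3, against 219.6, 192 and 173 CPM in Ctrl 1, 2 and 3. Here KO 1 was the lowest library and Ctrl 1 the highest, the reverse of the caveolins, and the groups overlapped. Its log2 fold change was -0.26 (SE 0.282, adjusted p = 0.564 in edgeR's quasi-likelihood test), and without KO 1 it turned to 0.03. Gm5417, a pseudogene of 438 bases, lies within its span.

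Plvap, the gene of the diaphragm, was the member that passed. It lies on chromosome 8 (NM_032398, 71497753 to 71511806, minus strand) and shares 1872 bases with Gtpbp3. Plvap had 302, 213 and 194 CPM in KO 1, 2 and 3, against 75.0, 129.8 and 80.0 CPM in Ctrl 1, 2 and 3. The lowest KO library lay well above the highest Ctrl library. The means were 236 ± 58.0 CPM in KO and 94.9 ± 30.3 CPM in Ctrl (SD, n = 3 each), a ratio of 2.49. The log2 fold change was 1.31 (SE 0.310), with an adjusted p of 0.0381 in edgeR's quasi-likelihood test. Without any one of KO 2, KO 3 or the 3 Ctrl libraries its adjusted p was between 0.0517 and 0.159, while without KO 1 it was 0.0186. In the fit without KO 1, 4927 genes of the whole table passed, against 1668 with all 6 libraries.

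Mfsd2a had the largest log2 fold change of the 8 genes. It lies on chromosome 4 (NM_029662, 122946850 to 122961194, minus strand). Mfsd2a had 282, 450.1 and 406 CPM in KO 1, 2 and 3, against 68.4, 160.0 and 183 CPM in Ctrl 1, 2 and 3. All KO libraries were above all Ctrl libraries, but KO 1 was the lowest of the KO group, where it was the highest for the caveolar coat genes and Plvap. The means were 379 ± 87.2 CPM in KO and 137 ± 60.5 CPM in Ctrl (SD, n = 3 each), a ratio of 2.77. The log2 fold change of 1.47 (SE 0.394) had an adjusted p of 0.0521 in edgeR's quasi-likelihood test, just short of the threshold. Without KO 1 it was 1.72, with an adjusted p of 0.0160 in that test. Adjusted p fell widely in that fit, where 4927 genes of the whole table passed, against 1668 with all 6 libraries.

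The authors' deposited table gave the same signs for the 8 genes, and 5 of them had an adjusted p below 0.05, namely Plvap (log2 fold change 1.40, adjusted p = 0.000885), Mfsd2a (1.57, 0.00268), Cavin1 (1.17, 0.00288), Ehd2 (1.21, 0.0172) and Cavin2 (1.13, 0.0322). Of all genes with an adjusted p in the authors' deposited table, 21.8% passed this threshold in either direction and 13.6% as higher in KO. The tools run here differed in the same way. DESeq2's Wald test also called these 5 genes of the 8, where 22.7% of all genes passed, 12.9% higher in KO and 9.85% lower. With limma-voom Plvap, Mfsd2a and Cavin1 passed, against 11.8% of all genes, 6.09% higher in KO and 5.69% lower.

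Scaled by exon length, the 8 genes fell into an order that was much alike in both groups. In KO the mean CPM per kilobase of exon was 169 ± 38.8 for Mfsd2a, 167 ± 35.9 for Cavin1, 119 ± 29.2 for Plvap and 77.0 ± 48.7 for Cav1 (SD, n = 3). It was 33.2 ± 9.59 for Pacsin2, 26.6 ± 4.50 for Ehd2, 24.3 ± 7.64 for Cavin2 and 19.5 ± 16 for Cav2. Among neighbours in this order, the gap between Cavin1 and Plvap was the only one larger than the SD of either gene. In Ctrl the mean was 78.7 ± 18.1 for Cavin1, 60.9 ± 26.9 for Mfsd2a, 47.8 ± 15.3 for Plvap, 39.7 ± 4.73 for Pacsin2 and 36.0 ± 14.4 for Cav1, then 12.2 ± 5.18 for Ehd2, 12.1 ± 6.53 for Cav2 and 11.7 ± 4.87 for Cavin2. There the gap between Cav1 and Ehd2 was the only one larger than the SD of either neighbour. Because intronic reads entered the counts, these are levels of counted reads per exon length.

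Since the endothelial markers themselves were higher in KO, though by unlike amounts, each gene was also set against the mean log2 CPM of the 15 markers in its own library. On that scale the KO and Ctrl libraries overlapped for each of these genes but Pacsin2. The share of all genes without overlap on that scale was not computed, so the separation of Pacsin2 has no background to be read against. Cavin1 averaged 0.34 ± 0.256 in KO and 0.52 ± 0.0467 in Ctrl, a difference of -0.18 on the log2 scale (SD, n = 3 each; exact permutation p = 0.4). Plvap averaged -1.004 ± 0.309 in KO and -1.07 ± 0.386 in Ctrl, a difference of 0.06 (exact permutation p = 0.8). Mfsd2a averaged -0.32 ± 0.430 in KO and -0.61 ± 0.428 in Ctrl, a difference of 0.29 (exact permutation p = 0.5). The differences were -0.25 for Cav1, -0.67 for Cav2, -0.17 for Cavin2 and -0.05 for Ehd2, with exact permutation p of 0.7, 0.4, 0.6 and 0.9 in that order.

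Of the 8 genes, only Pacsin2 had groups that separated on this scale. The scale sets a gene without change under TMM lower in KO, because the markers were higher there. Pacsin2 had -2.16, -1.42 and -1.09 in KO 1, 2 and 3, against 0.58, -0.17 and -0.37 in Ctrl 1, 2 and 3. All KO values lay below all Ctrl values, a difference of -1.57, and the two-sided exact permutation p was 0.1, the smallest that 3 against 3 libraries can give. Adjusted over the 8 genes it was 0.8, and for the other genes 0.9. With the libraries scaled to equal endothelial markers in edgeR's quasi-likelihood test, Pacsin2 was the only one of the 8 to pass, at a log2 fold change of -1.57 (SE 0.430, adjusted p = 0.0116). Of all genes, 48.9% passed there, 0.444% higher in KO and 48.5% lower. That scaling lowered the median of all genes to -1.26, and it lowered the 8 genes by nearly as much, between -1.18 for Mfsd2a and -1.31 for Pacsin2. A gene with a smaller positive log2 fold change under TMM than this shift turns negative by construction: Cav1, Cav2, Cavin1, Cavin2 and Ehd2 came to -0.13, -0.51, -0.17, -0.15 and -0.08, and Plvap and Mfsd2a to 0.05 and 0.29. Set against the median of all genes, the log2 fold changes differed little between the scalings, at 1.31 under the endothelial scaling and 1.29 under TMM for Plvap and at -0.30 and -0.29 for Pacsin2.

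**Figure D3:**
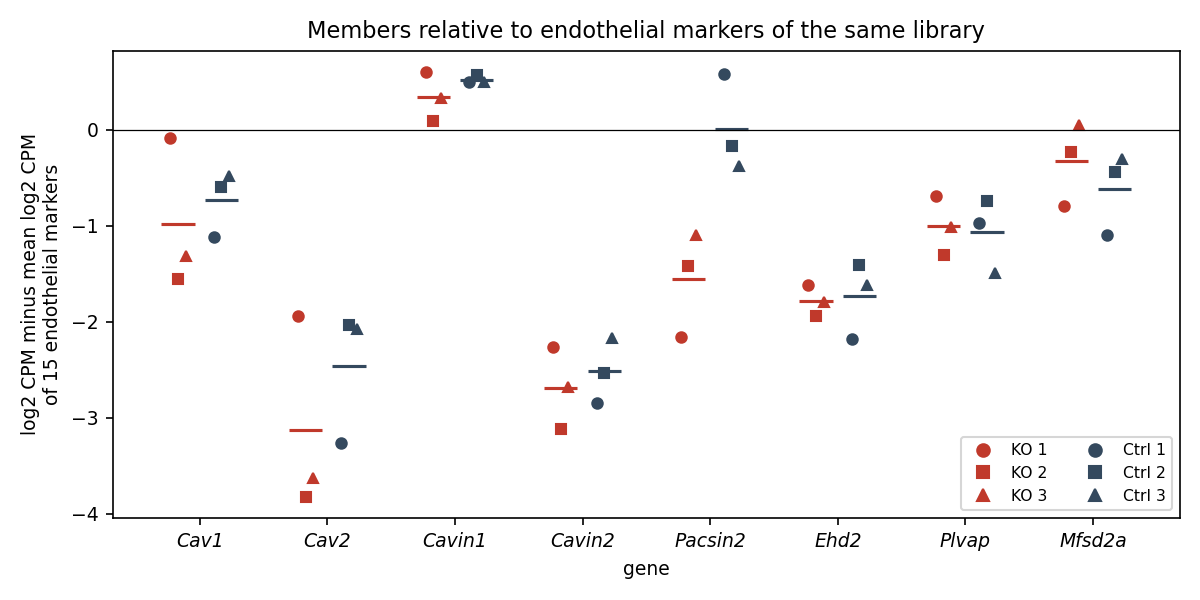
Log2 CPM of each gene minus the mean log2 CPM of 15 endothelial markers in the same library, for 3 KO and 3 Ctrl libraries, with bars at the group means. The groups overlap for all genes shown but Pacsin2, which is lower in every KO library. The share of all genes without overlap on this scale was not computed.

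**Figure D4:**
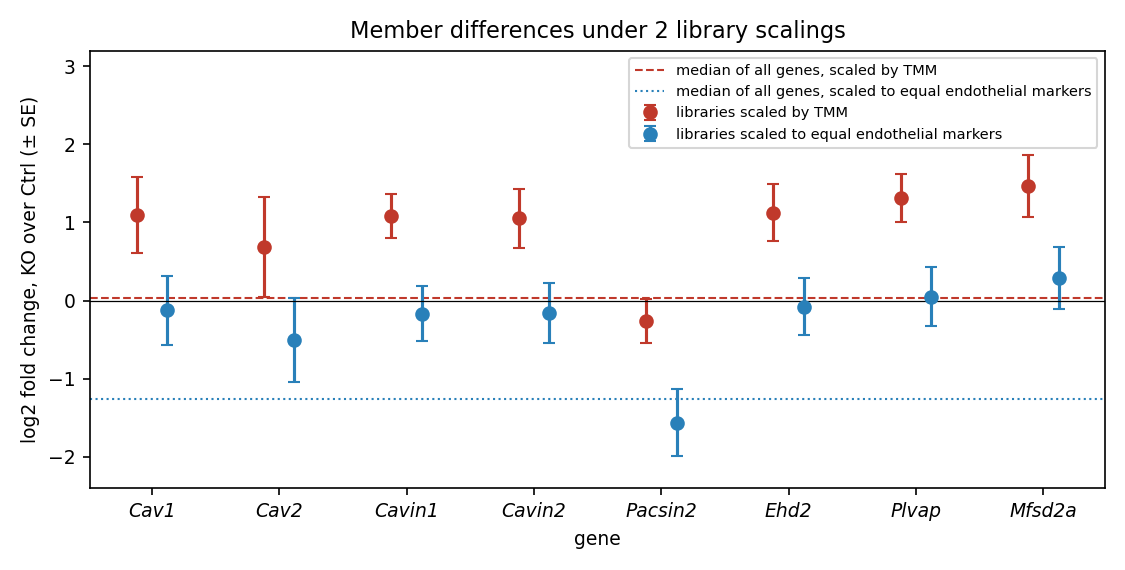
Log2 fold change of KO over Ctrl (± SE) for the 8 genes, with libraries scaled by TMM and scaled to equal endothelial markers, and the median of all genes under each scaling as a horizontal line. Under TMM 7 genes are above 0, and under the endothelial scaling Cav1, Cav2, Cavin1, Cavin2 and Ehd2 turn to the other side of 0 while the median of all genes moves from 0.03 to -1.26.

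Ratios of the genes within a library do not depend on library scaling. Plvap minus Mfsd2a, on the log2 scale, sets a gene of leaky vessels against a gene of barrier vessels. It was 0.10, -1.08 and -1.07 in KO 1, 2 and 3, against 0.13, -0.30 and -1.19 in Ctrl 1, 2 and 3. The groups overlapped, and the difference of means was -0.23 (exact permutation p = 0.9). Cav1 minus Cavin1 was -0.69, -1.64 and -1.64 in KO 1, 2 and 3, against -1.61, -1.18 and -0.97 in Ctrl 1, 2 and 3, a difference of -0.07 (exact permutation p = 0.8). Cavin2 minus Cavin1 differed by 0.01 between the groups (exact permutation p = 1). Cav1 minus Mfsd2a was 0.70, -1.32 and -1.37 in KO 1, 2 and 3, against -0.01, -0.16 and -0.18 in Ctrl 1, 2 and 3. The groups overlapped, and the difference of means was -0.55 (exact permutation p = 0.4). The Ctrl libraries were tightly grouped on that ratio and the KO libraries were not, with KO 1 above and the other KO libraries below every Ctrl library.

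Most coat genes followed one another across the 6 libraries, which is given as a description, since libraries of a group share genotype and the libraries differ in depth and cell makeup. Pearson's r of log2 CPM was 0.933 between Cav1 and Cav2, 0.949 between Cav1 and Cavin2, 0.955 between Cavin1 and Cavin2 and 0.965 between Cavin1 and Ehd2. Cav2 was less close to the genes outside its locus, with 0.816 with Cavin2, 0.739 with Ehd2 and 0.706 with Cavin1. Plvap had an r of 0.955 with Cavin1. Mfsd2a had an r of 0.642 with Cav1 and of 0.441 with Cav2, and higher values with Ehd2 (0.917), Cavin1 (0.866) and Cavin2 (0.832). Pacsin2 ran against Cav1, with an r of -0.925. The ratio of KO 1 to the mean of KO 2 and KO 3 was 2.72 for Cav1, 3.68 for Cav2, 1.49 for Plvap and 0.659 for Mfsd2a.

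Of 12351 genes with a mean of at least 5 CPM, the 3 most like Cav1 over the 6 libraries were Utrn, Pkp4 and B3gnt2, with r of 0.998, 0.997 and 0.995. For Plvap they were N4bp1, Trim16 and Foxn3, with r of 0.991, 0.985 and 0.985. For Mfsd2a they were Eln, Chst14 and Cdca3, with r of 0.997, 0.997 and 0.996. Utrn had 143, 58.6 and 52.7 CPM in KO 1, 2 and 3, against 21.8, 44.6 and 47.8 CPM in Ctrl 1, 2 and 3, which is the order of libraries seen for Cav1 but for the place of Ctrl 3. Eln had 15.7, 31.9 and 29.3 CPM in KO 1, 2 and 3, against 2.53, 6.85 and 9.84 CPM in Ctrl 1, 2 and 3, the order seen for Mfsd2a.

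Further genes of the pathway are given by lists, with calls from the same test. Without any one of Ctrl 1, Ctrl 2, Ctrl 3 or KO 2, 0 genes of the whole table passed in edgeR, at 3434 to 4005 genes with an unadjusted p below 0.05, so every call of these lists was lost when any of these libraries was left out. Under the endothelial scaling none of the named genes that rose passed, with log2 fold changes from -0.21 for Igf2r to 0.62 for Stx4a, and those that fell had -3.31 for Napb to -2.23 for Nsf. The median of all genes was -1.26 there, and the 48.5% of all genes that passed as lower include the genes that fell. Under TMM, the shares of all genes to read the lists against are 5.85% higher, 4.44% lower and 51.0% positive.

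Among the other genes of the caveolar coat and neck, 12 of 13 were tested, 1 rose and 1 fell, and 7 had a positive log2 fold change, with a median of 0.24. Cavin3, the remaining cavin of endothelium, rose. It had 227, 227 and 222 CPM in KO 1, 2 and 3, against 73.5, 82.5 and 82.0 CPM in Ctrl 1, 2 and 3. The libraries of each group lay closer together than for any of the 8 genes above. Its log2 fold change was 1.504 (SE 0.212, adjusted p = 0.0211 in edgeR's quasi-likelihood test). Dnm3, a dynamin, which cuts vesicles from the membrane and in this form is best known from neurons, fell to 50.2 ± 9.59 CPM in KO against 105 ± 11.1 CPM in Ctrl (SD, n = 3 each). Dnm3 overlaps Dnm3os and other genes of the table, so its counts are uncertain. Cavin4, the cavin of muscle, averaged 0.538 ± 0.260 CPM in KO and 0.548 ± 0.613 CPM in Ctrl.

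Of 12 transcytosis receptors, 11 had a positive log2 fold change with a median of 0.91, 2 rose and none fell. Acvrl1, a receptor of BMP ligands that also takes up LDL in endothelium, averaged 234 ± 50.5 CPM in KO and 69.5 ± 17.4 CPM in Ctrl (SD, n = 3 each), a log2 fold change of 1.75 (SE 0.293, adjusted p = 0.0221 in edgeR's quasi-likelihood test). Igf2r, which carries IGF2 and mannose 6-phosphate cargo, averaged 94.2 ± 11.7 CPM in KO and 46.4 ± 10.8 CPM in Ctrl, a log2 fold change of 1.02 that turned to -0.21 under the endothelial scaling. Igf2r overlaps the antisense gene Airn.

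Of 14 clathrin coat genes, 2 rose and none fell, with a median log2 fold change of 0.29. Ap2s1, a subunit of the AP2 adaptor, averaged 284 ± 83.2 CPM in KO and 117 ± 10.9 CPM in Ctrl, and its log2 fold change of 1.28 turned to -0.01 under the endothelial scaling. Epn1, an adaptor that bends the membrane at clathrin pits, averaged 42.2 ± 9.33 CPM in KO and 16.2 ± 1.00 CPM in Ctrl (SD, n = 3 each).

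The genes of vesicle docking and fusion split in both directions. Of 13 tested, 3 rose and 3 fell, and the median log2 fold change was -0.06. Vamp8, a vesicle SNARE, rose to 175 ± 52.4 CPM in KO against 57.5 ± 3.60 CPM in Ctrl, Stx4a, a plasma membrane SNARE, to 22.1 ± 7.35 CPM against 6.14 ± 1.94 CPM, and the early endosome GTPase Rab5c to 40.5 ± 7.39 CPM against 14.3 ± 3.19 CPM (SD, n = 3 each). The genes that fell belong to the machinery that takes SNAREs apart, but not all of that machinery fell. Napa, also part of it, averaged 452 ± 143 CPM in KO and 471 ± 128 CPM in Ctrl (SD, n = 3 each). Its log2 fold change was -0.06 (SE 0.326, adjusted p = 0.923 in edgeR's quasi-likelihood test). Napb, the beta form of SNAP that is best known from brain, fell to 37.1 ± 6.12 CPM in KO against 151 ± 17.2 CPM in Ctrl, a log2 fold change of -2.02 (SE 0.244, adjusted p = 0.0211 in edgeR's quasi-likelihood test). Napg averaged 44.3 ± 10.9 CPM in KO and 96.7 ± 10.3 CPM in Ctrl, and the ATPase Nsf 184 ± 22.3 CPM in KO and 346 ± 49.6 CPM in Ctrl, both lower in KO past the threshold. Of the 14 photoreceptor markers 3 passed as lower in KO and 0 had a positive log2 fold change, with a median of -1.20. Their sums overlapped between the groups, as given above. Their part in these differences was not tested.

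Of 11 signalling partners of caveolin, 2 rose, 1 fell and 8 had a positive log2 fold change, with a median of 0.84. Nos3, the endothelial nitric oxide synthase that Cav1 holds inactive, rose to 311 ± 82.6 CPM in KO against 116 ± 27.5 CPM in Ctrl, a log2 fold change of 1.42 (SE 0.299, adjusted p = 0.0294 in edgeR's quasi-likelihood test). Nos3 overlaps Atg9b in the table. Src, the kinase that phosphorylates Cav1, rose to 45.7 ± 11.3 CPM in KO against 18.5 ± 4.56 CPM in Ctrl. Kcnma1, a potassium channel subunit found in caveolae and also in neurons, fell to 38 ± 8.68 CPM in KO against 116 ± 20.3 CPM in Ctrl (SD, n = 3 each), a log2 fold change of -1.60 (SE 0.273, adjusted p = 0.0224 in edgeR's quasi-likelihood test).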

How the data were processed

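PolyA RNA of CD31-sorted retinal cells was amplified from oligo-dT as full-length cDNA and read on a BGISEQ-500 in single 50-base reads, per the labels' protocols. Tools in the submitters' processing notes are STAR, deepTools, DESeq2, edgeR and Trimmomatic 0.36, with the build mm10, in no stated role. The authors deposited raw counts per transcript entry, normalized counts (a signal: the count divided by 1 size factor per library) and RPKM. Per the file headers, the authors also gave p-values, raw and adjusted, the log2 fold change and its standard error, and a test statistic, here a score. The deposited length lay within 2% of the genomic span for 80.4% of matched genes and 7 of the 8 members (not Ehd2), so RPKM was not used. Of 22 genes above 5000 counts that lie inside a host gene's intron, 19 had a host whose own count reached 95% of theirs, so intronic reads entered the counts. Counts of Ctrl 3 came from a column whose name gives another replicate number. The normalized column named for Ctrl 3 equals it divided by 1 constant. Of the table's 34035 entries, the one with the longest length was used for each of 19124 symbols.

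Counts were tested with edgeR 4.0.16 in R 4.3.3 (glmQLFit, TMM, filterByExpr, no covariate, two-sided, Benjamini-Hochberg over 16217 genes, threshold 0.05). The standard error is the log2 fold change divided by the square root of F. Log2 CPM used a prior count of 0.5. Alternatives used DESeq2 1.42.0, limma 3.58.1 (voom), DESeq2 size factors in edgeR, other transcript entries, no filter, libraries scaled to equal endothelial markers, a replicate block and each library left out. Exact permutation tests were two-sided, with a smallest p of 0.1. The edgeR script was tested on simulated data. Coordinates are RefSeq on GRCm38.p6, 1-based. Genes were named as follows: the 8 members, up to 3 genes per direction past the threshold of each other list, 3 genes most like Cav1, Plvap and Mfsd2a, and Rnf20. Cavin4, Napa, Gpihbp1, Esm1, Ehd3, Plpp3, Rgs5, the cell type markers and the genes given as overlaps were named outside this. Members and lists were chosen with earlier results of these data known.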

Additional observations from a re-analysis of the deposited data

How the results depend on the processing

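Limits: with 3 libraries a group, single libraries decided several calls, and levels per library and per endothelial marker RNA differ by a shift common to the genes. The number of genes past the threshold, 1668, was 3536 with DESeq2, 7935 with the endothelial scaling, of which 0.907% were higher in KO against 56.8% with TMM, 1 with the replicate block, and 0 to 4927 with 1 library left out. It was 0 in edgeR without Ctrl 1, 2 or 3 or KO 2, where 4005, 3434, 3479 and 3576 genes had an unadjusted p below 0.05, 866 without KO 3 and 4927 without KO 1. The replicate numbers were not treated as pairs. Deviations of same-numbered libraries had correlations of -0.32, 0.07 and -0.23. With 3 libraries a group such values cannot exclude a shared litter or batch, which the labels do not give.

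Of the 8 genes, 1 passed. It was 5 with DESeq2 (Cavin1, Cavin2, Plvap, Mfsd2a and Ehd2), where 22.7% of all genes passed. With voom it was 3 (Cavin1, Plvap and Mfsd2a), where 11.8% of all genes passed. With DESeq2 size factors in edgeR it was 2 (Cavin1 and Plvap), where 1702 genes of the whole table passed. The shortest entry gave the same 2, where 9.93% of all genes passed. It was 0 with the replicate block and 0 to 3 with 1 library left out. The 3 were Cavin1, Mfsd2a and Plvap without KO 1, where 4927 genes of the whole table passed. With the endothelial scaling 1 passed, Pacsin2, lower in KO as were 48.5% of all genes. Over the 14 alternatives Plvap passed in 7, with log2 fold changes of 0.05 to 1.61 and adjusted p of 0.00149 to 0.919, Cavin1 in 5, Mfsd2a in 3, Cavin2, Ehd2 and Pacsin2 in 1 each and Cav1 and Cav2 in 0.

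The endothelial scaling lowered the median of all genes by a shift of -1.29, so smaller positive log2 fold changes turned sign by construction: these were Cav1 (-0.13), Cav2 (-0.51), Cavin1 (-0.17), Cavin2 (-0.15), Ehd2 (-0.081), Igf2r (-0.21) and Ap2s1 (-0.013). With 1 library left out, Cav2 ran from -0.16 to 1.04 and Pacsin2 from -0.39 to 0.031, each turning sign without KO 1. Relative to the median in place of the mean of the markers, the differences were 0.030 for Cavin1, 0.042 for Cavin2 and 0.16 for Ehd2, and relative to Cdh5 alone 0.084 for Ehd2. With 1 library left out, the relative differences ran from -0.70 to 0.028 for Cav1, -0.38 to 0.0455 for Cavin2, -0.15 to 0.23 for Plvap and -0.28 to 0.11 for Ehd2, and Plvap minus Mfsd2a from -0.62 to 0.063. The cause of the changes with 1 library left out or another marker summary was not tested. The likeness coefficients moved by less than 0.1 under 7 alternatives, which were chosen after seeing the data.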

Other observations

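Markers of fenestrated endothelium, the kind of vessel in which Plvap is abundant, gave mixed values. Of 8 genes, Plvap among them, 2 rose and none fell, and the median log2 fold change was 0.78. Besides Plvap the gene that rose was Plpp3, a lipid phosphatase, at 141 ± 5.99 CPM in KO and 72.4 ± 7.88 CPM in Ctrl (SD, n = 3 each), a log2 fold change of 0.96 (SE 0.217, adjusted p = 0.0345 in edgeR's quasi-likelihood test). Gpihbp1, which carries lipoprotein lipase across capillary endothelium, averaged 65.4 ± 6.55 CPM in KO and 27.1 ± 13.6 CPM in Ctrl, with no overlap and an adjusted p of 0.0601 in edgeR's quasi-likelihood test. Esm1, a gene of tip cells, averaged 57.6 ± 45.0 CPM in KO and 22.5 ± 5.24 CPM in Ctrl, and Ehd3, a relative of Ehd2, 18.3 ± 4.02 CPM in KO and 30.7 ± 8.23 CPM in Ctrl. Neither passed the threshold. These genes were named after their values were seen.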
